A study of Mus musculus with 2 samples.

Results

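The 8 genes described here, *Ckb*, *Ckmt1*, *Slc6a8*, *Gamt*, *Gatm*, *Ak1*, *Slc25a4* and *Slc25a5*, were chosen by symbol as the creatine kinase and phosphate buffering genes of the retina, from 32285 genes in all. Their expression was measured by droplet-based 3′ scRNA-Seq (10x Genomics) of retinas that had been dissociated with trypsin and papain, from male C57BL/6J mice aged 7 months. There was 1 WT library and 1 ND6 library, the latter from mice that carry a missense mutation of the mtDNA-encoded complex I subunit ND6 linked to Leber hereditary optic neuropathy (LHON). The mutation lies in the mtDNA and is not limited to a cell type. How many mice each retinal suspension came from is not given in the sources used here. Gene counts do not show a base change, so the genotype of the libraries was not checked.

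Creatine kinases move a phosphate group between ATP and creatine, which lets a cell hold a store of energy-rich phosphate and carry it from mitochondria to sites of use. *Ckb* encodes the cytosolic brain-type enzyme, *Ckmt1* the ubiquitous enzyme of the mitochondrial intermembrane space. Creatine is made by GATM and then GAMT, or taken up by the transporter SLC6A8. AK1 is a cytosolic adenylate kinase that exchanges phosphate among adenine nucleotides, and SLC25A4 (ANT1) and SLC25A5 (ANT2) exchange ADP and ATP across the inner mitochondrial membrane. Photoreceptors use much ATP, with their mitochondria gathered in the inner segment, at a distance from outer segments and synapses.

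Barcodes with more than 400 unique molecular identifiers (UMIs) and more than 200 genes were taken as cells unless mtDNA-encoded genes made up over 20% of their UMIs. The WT library held 77958836 UMIs and 12529 cells, and the ND6 library 80358255 UMIs and 18395 cells, with a median of 1878 and 1416 UMIs per cell. The limit on mtDNA-encoded UMIs removed 45.9% of WT and 17.3% of ND6 barcodes, and the libraries shared 59 cell barcodes, 0.471% of WT and 0.321% of ND6 cells. Levels are UMIs summed over the cells of a class and scaled to 1000000 UMIs (CPM). With 1 library per genotype the spread between mice is unknown and nothing was tested. All intervals are 95% intervals for counting error only, exact Poisson for levels, Clopper-Pearson for shares and conditional for ratios.

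The cells were clustered without these 8 genes and named from markers. The classes were rod-like (9693 WT and 13601 ND6 cells), cone-like (494 and 773), bipolar-like (233 and 636), amacrine-like (17 and 169), Müller-like (37 and 92), retinal pigment epithelium-like (RPE-like, 323 and 958) and macrophage- or microglia-like (270 and 152). Red blood cells (49 and 19) were too few to describe. Of the cells, 1413 WT and 1995 ND6 cells in 4 clusters stayed unnamed. The 10 rod markers summed to 67572 CPM in WT and 66790 CPM in ND6 cells, while the 3 lens markers lay at 0.128 and 0.159 CPM. The 4 horizontal cell markers summed to 4.31 and 7.77 CPM over all cells, and no class was named for horizontal or ganglion cells. With no limit on mtDNA-encoded UMIs, 1 cluster, led by *Bc1*, *Nefl* and *Stmn2*, was named ganglion cell-like from 3 raised markers. It held 2757 WT and 1549 ND6 barcodes, with a median of 41.5% mtDNA-encoded UMIs, and is not described further. Transcripts of rods were present in every class: rod markers summed to between 27154 and 46844 CPM in the other named classes, against 76027 and 77686 CPM in rod-like cells. In the 4 unnamed clusters they summed to between 14418 CPM (cluster 15, WT) and 81935 CPM (cluster 5, WT). The part of rod transcripts in the levels of the other classes was not tested beyond the subtraction of free RNA.

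Promoter sequences of the pair of creatine kinases and of the pair of ADP/ATP carriers are shown because the log2 ratios (ND6 over WT) within each pair had opposite signs over all cells, 0.26 for *Ckb* and −0.37 for *Ckmt1*, and 0.20 for *Slc25a4* and −0.21 for *Slc25a5*, although only that of *Ckmt1* was past the limits of 25% higher or 20% lower set for such ratios. They run from 250 bases before to 50 bases after the start of a RefSeq transcript (GRCm38.p6) and are written on the strand of the gene. A few short motifs were searched on both strands, and capitals mark their matches on either strand. Only exact letters were matched, so variants of a motif are not marked or counted. The TATA box, TATAAA, is in 13.6% of 32851 RefSeq promoters. The CCAAT box is in 37.4%. The GC box, GGGCGG, is in 35.7%. The element of estrogen-related receptors, AAGGTCA, is in 4.72%. The core site of the photoreceptor factors CRX and OTX2, TAATCC, is in 7.06%. The *Ckb* window (chr12:111672289-111672588, minus strand) holds 1 TATA box and 2 CCAAT boxes. The *Ckmt1* window, at the first of its 2 starts (chr2:121357526-121357825, plus strand), holds 1 TATAAA match and 1 estrogen-related receptor element. Both are on the strand opposite the gene, so the former is not a TATA box in the direction of *Ckmt1*. That of *Slc25a4* (chr8:46211013-46211312, minus strand) holds 2 CCAAT boxes and 1 GC box, and that of *Slc25a5* (chrX:36795347-36795646, plus strand) 1 GC box. The last 20 bases of the other windows shown lie in a GENCODE M21 transcript of their gene, but those of the *Slc25a5* window do not, since it ends before the GENCODE start of the gene at 36795651.
Ckb: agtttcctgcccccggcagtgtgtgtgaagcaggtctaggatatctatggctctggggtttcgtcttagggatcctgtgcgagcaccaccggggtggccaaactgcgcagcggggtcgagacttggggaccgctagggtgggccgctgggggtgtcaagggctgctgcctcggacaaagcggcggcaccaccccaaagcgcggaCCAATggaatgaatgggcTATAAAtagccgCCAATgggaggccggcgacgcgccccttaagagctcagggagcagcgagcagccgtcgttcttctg
Ckmt1: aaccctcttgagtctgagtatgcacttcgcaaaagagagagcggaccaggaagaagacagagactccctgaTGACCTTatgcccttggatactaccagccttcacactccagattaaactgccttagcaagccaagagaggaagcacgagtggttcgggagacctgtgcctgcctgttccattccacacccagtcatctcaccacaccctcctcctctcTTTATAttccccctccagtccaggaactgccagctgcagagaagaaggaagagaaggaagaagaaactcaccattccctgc
Slc25a4: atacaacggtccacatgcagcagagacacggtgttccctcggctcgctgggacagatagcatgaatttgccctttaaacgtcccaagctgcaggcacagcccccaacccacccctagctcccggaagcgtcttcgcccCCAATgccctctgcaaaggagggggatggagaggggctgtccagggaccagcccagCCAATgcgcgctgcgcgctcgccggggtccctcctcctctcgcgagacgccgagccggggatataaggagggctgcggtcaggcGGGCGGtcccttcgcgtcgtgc
Slc25a5: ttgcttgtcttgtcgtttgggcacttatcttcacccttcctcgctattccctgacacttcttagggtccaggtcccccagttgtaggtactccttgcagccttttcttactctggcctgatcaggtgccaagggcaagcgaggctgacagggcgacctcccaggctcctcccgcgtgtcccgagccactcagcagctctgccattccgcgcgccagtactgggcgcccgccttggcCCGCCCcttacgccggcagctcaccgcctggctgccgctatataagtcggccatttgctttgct

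The *Gamt* promoter (chr10:80260963-80261262, minus strand) holds 4 GC boxes and that of *Gatm* (chr2:122611228-122611527, minus strand) 2 CCAAT boxes. Of the 4 *Ak1* windows, 1 holds a TATA box and 1 an estrogen-related receptor element. The second window of *Ckmt1* holds 1 CCAAT box. The CRX and OTX2 core is in 0 of these 11 windows of 7 genes. These matches describe letters in a window and do not show that a factor binds there.

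The creatine kinases differed in where they were highest. *Ckb* was highest outside rods, in neurons of the inner retina and in cones, and *Ckmt1* in cones and then in rods. *Ckb* (ENSMUSG00000001270, chr12:111669361-111672338, minus strand) measured 820 CPM in WT and 979 CPM in ND6 rod-like cells. It measured 2711 (2660 to 2763) and 2826 (2778 to 2875) CPM in cone-like cells, and 2548 and 2513 CPM in bipolar-like cells. Amacrine-like cells held 3126 CPM in WT and 1863 CPM in ND6, and Müller-like cells 1340 and 1487 CPM. RPE-like cells held 977 and 994 CPM, and macrophage- or microglia-like cells 767 and 1026 CPM. In the WT order of all named classes, adjacent intervals of *Ckb* overlapped only between rod-like and macrophage- or microglia-like cells. In the ND6 library the intervals of macrophage- or microglia-like, RPE-like and rod-like cells overlapped in turn, at the low end.

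The cone-like level of *Ckb* was 3.31 times the rod-like level in WT and 2.89 times in ND6, and the bipolar-like level 3.11 and 2.57 times. The unnamed cluster 11, led by *Pde6c*, *Adrb1* and *Mylk*, held 855 and 1057 CPM, 1.04 and 1.08 times the rod-like level. At Leiden resolution 2 a cluster led by the same genes was named cone-like. In cluster 11 the rod markers summed to 69550 CPM in WT and 72634 CPM in ND6. The cone markers summed to 4156 and 4971 CPM there, against 25121 and 25726 CPM in cone-like cells. The cone-like levels and folds given here are those of the class named at resolution 1, without cluster 11. Bipolar-like cells were not uniform. Cluster 17, led by *Cntn5* and *Cabp5*, held 4411 and 4202 CPM, and cluster 19, led by *Trpm1* and *Pcp2*, held 2588 and 2709 CPM. Cluster 14, led by *Cck*, *Reln* and *Vsx1*, held 1311 and 1682 CPM, the lowest of the 6 bipolar-like clusters. The unnamed cluster 15, which was led by *Cartpt*, *Nhlh2* and *Sparcl1*, held 3552 CPM of *Ckb* in WT and 2484 CPM in ND6.

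*Ckmt1* (ENSMUSG00000000308, chr2:121357714-121363737, plus strand) was highest in cone-like cells of both libraries, at 345 (327 to 363) CPM in WT and 268 (253 to 283) CPM in ND6. Rod-like cells held 182 (178 to 187) and 141 (137 to 145) CPM. The remaining named classes lay between 94.97 and 105 CPM in WT and between 45.9 and 93.3 CPM in ND6, with adjacent intervals that overlapped. Rods and cones thus held more *Ckmt1* than the other named classes in both libraries, and cones about 1.89 (WT) and 1.90 (ND6) times as much as rods. The unnamed cluster 11, which is not in the cone-like class here, held 185 (175 to 195) and 154 (147 to 162) CPM. Against *Ckb*, the share of *Ckmt1* in the UMIs of both kinases was highest in rod-like cells among named classes, 18.2% in WT, and low in bipolar-like cells (3.97%) and amacrine-like cells (3.23%).

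**Figure D1:**
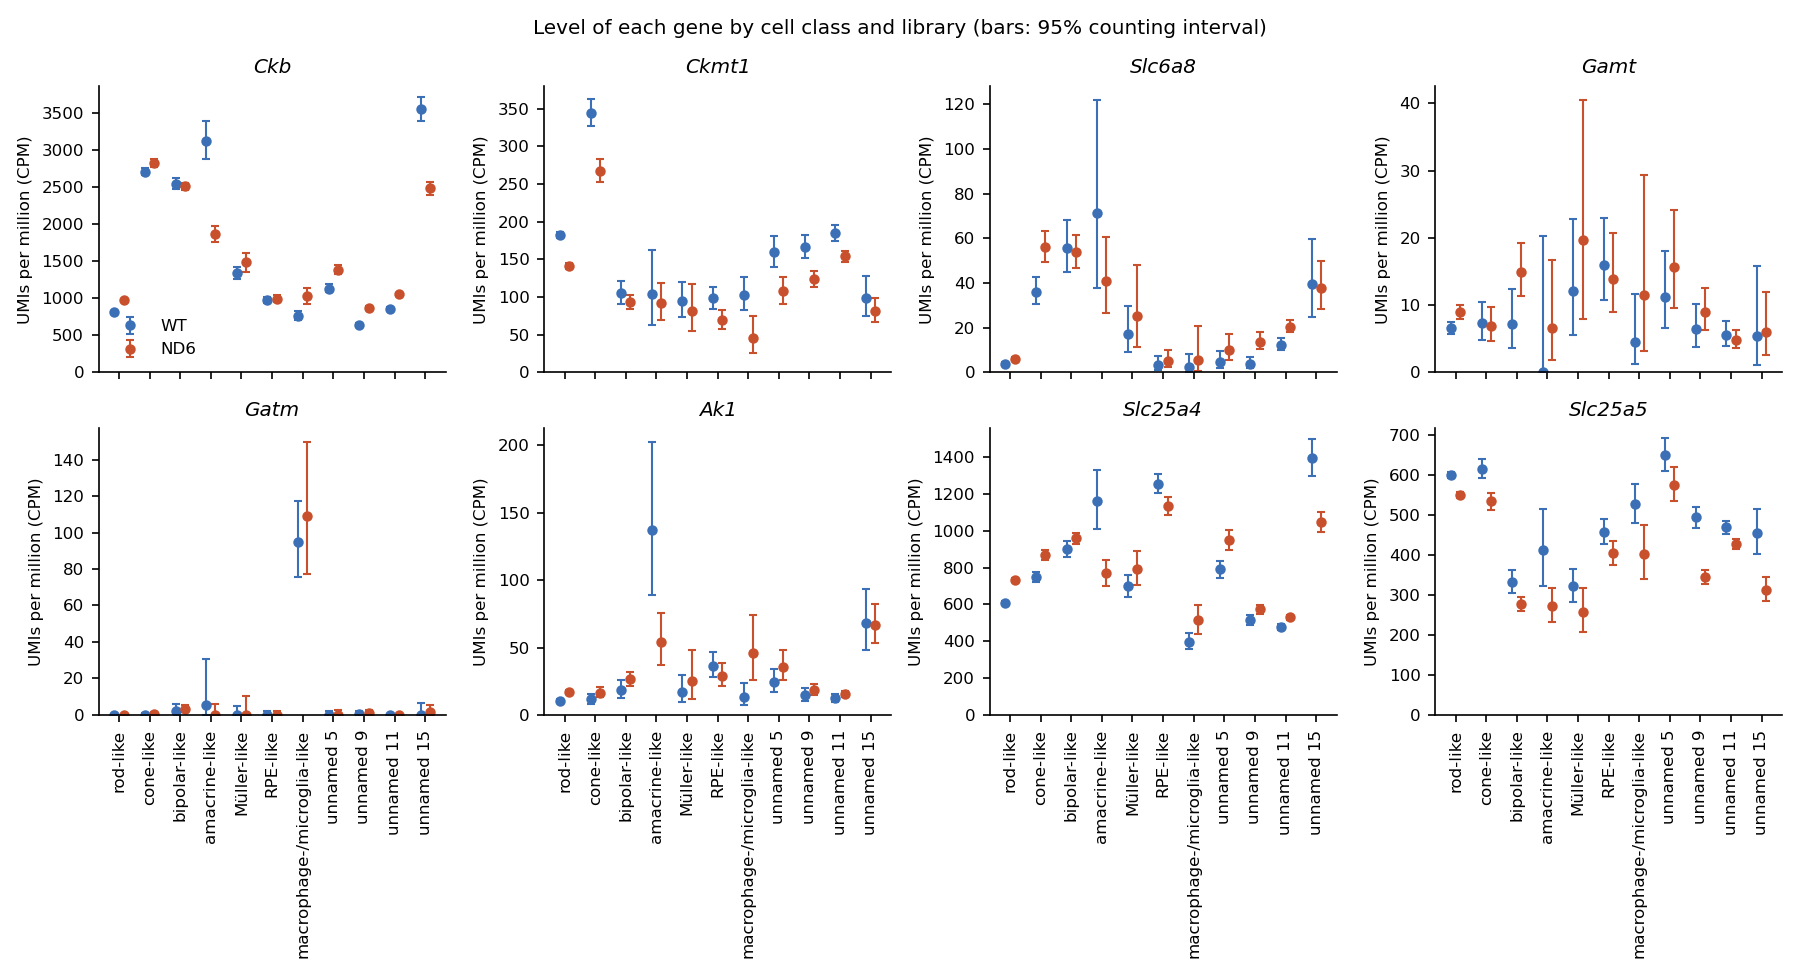
Level (CPM) of each of the 8 genes in 7 named classes and 4 unnamed clusters, with WT in blue and ND6 in orange, 1 library each, and bars for the 95% counting interval. *Ckmt1* is highest in cone-like cells, *Gatm* stands out in macrophage- or microglia-like cells at 94.8 and 109 CPM, and *Slc6a8* is low in rod-like cells at 4.01 and 5.96 CPM.

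The 3 genes that supply creatine had different orders across the classes. *Gatm* (ENSMUSG00000027199, chr2:122594467-122611303, minus strand), which encodes the enzyme of the first step, was highest in macrophage- or microglia-like cells, with 94.8 (75.5 to 117.5) CPM in WT and 109 (77.1 to 149.5) CPM in ND6. These cells held 83 of 96 WT and 38 of 68 ND6 UMIs of *Gatm*, or 86.5% and 55.9%, and 1.61% and 0.554% of all UMIs of cells. Rod-like cells held 0.208 and 0.235 CPM, from 7 and 8 UMIs. Müller-like and RPE-like cells held 0 UMIs in both libraries, which allows up to 4.01 and 8.43 CPM in Müller-like and 1.66 and 1.74 CPM in RPE-like cells (3 counts). Bipolar-like cells held 2.38 and 3.30 CPM from 4 and 13 UMIs. Of the 2 macrophage- or microglia-like clusters, cluster 23, led by *Ccl4*, *Ccl3* and *Cx3cr1*, held 153 and 191 CPM, and cluster 13, led by *Igkc*, *Ccl5* and *Tyrobp*, held 49.0 and 59.7 CPM. Thinned to 400 UMIs per cell, 4.07% of WT and 5.92% of ND6 macrophage- or microglia-like cells held a *Gatm* UMI, against 0 of 9693 and 1 of 13601 rod-like cells.

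*Gamt* (ENSMUSG00000020150, chr10:80258151-80261012, minus strand), which encodes the second step, was low in every class and did not follow *Gatm*. It ranged from 4.57 CPM in macrophage- or microglia-like to 16.0 CPM in RPE-like cells of WT, with 0 UMIs in the 17 amacrine-like cells (at most 16.5 CPM). In ND6 it ranged from 6.55 CPM in amacrine-like to 19.7 CPM in Müller-like cells. Adjacent intervals overlapped throughout the order in both libraries. Within the bipolar-like class, cluster 17 held more than any named class, 37.0 (16.9 to 70.2) CPM in WT and 58.0 (37.9 to 84.9) CPM in ND6. These came from 9 and 26 UMIs, and bipolar-like cluster 19 held 0 UMIs in both libraries. Of the UMIs of both synthesis genes, *Gatm* took 95.4% in WT and 90.5% in ND6 macrophage- or microglia-like cells but 3.06% and 2.55% in rod-like cells.

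*Slc6a8* (ENSMUSG00000019558, chrX:73673150-73682502, plus strand), the creatine transporter, was higher in cones and inner retinal neurons than in rods. Cone-like cells held 36.2 (30.5 to 42.6) CPM in WT and 56.1 (49.5 to 63.4) CPM in ND6. Bipolar-like cells held 55.9 and 54.0 CPM, and amacrine-like cells 71.4 and 41.0 CPM from 13 and 25 UMIs. Rod-like cells held 4.01 (3.36 to 4.75) and 5.96 (5.17 to 6.84) CPM. The cone-like level was 9.02 (WT) and 9.42 (ND6) times, and the bipolar-like level 13.9 and 9.06 times, the rod-like level. In WT the intervals of amacrine-like and bipolar-like cells overlapped and that of cone-like cells lay below the bipolar-like one, while in ND6 those of cone-like, bipolar-like and amacrine-like cells overlapped. Cone-like cells held 27.2% of WT and 24.5% of ND6 *Slc6a8* UMIs and 7.30% and 7.33% of all UMIs. With each cell thinned to 400 UMIs, 4 of 494 WT (0.810%) and 22 of 773 ND6 (2.85%) cone-like cells held a *Slc6a8* UMI, against 13 of 9693 (0.134%) and 41 of 13601 (0.301%) rod-like cells. Before thinning the cone-like shares were 22.7% and 26.8%, at a median of 6421.5 and 4792 UMIs, and the rod-like shares 1.21% and 1.42% at 1771 and 1331 UMIs.

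*Ak1* (ENSMUSG00000026817, chr2:32621758-32635058, plus strand) was highest in amacrine-like cells in WT, at 137 (88.9 to 203) CPM from 25 UMIs, and in the unnamed cluster 15 in ND6, at 66.9 (53.6 to 82.4) CPM. The WT level of cluster 15 was 68.3 CPM, and the ND6 level of amacrine-like cells 54.1 CPM. RPE-like cells held 36.5 and 29.0 CPM, rod-like cells 10.5 and 16.8 CPM, and cone-like cells 11.6 and 16.5 CPM. The rod-like and cone-like intervals overlapped in both libraries. Macrophage- or microglia-like cells held 13.7 and 45.9 CPM, from 12 and 16 UMIs. *Ak1* in amacrine-like cells was thus 13.1 (WT) and 3.22 (ND6) times the rod-like level.

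The carriers had different orders across the classes. *Slc25a4* (ENSMUSG00000031633, chr8:46206797-46211284, minus strand) was highest among named classes in RPE-like cells, at 1255 (1204 to 1308) CPM in WT and 1132 (1083 to 1184) CPM in ND6. In WT its interval overlapped that of amacrine-like cells (1159 CPM in WT and 768 CPM in ND6). Bipolar-like cells held 900 and 959 CPM, cone-like cells 748 and 867 CPM, rod-like cells 609 and 735 CPM, and macrophage- or microglia-like cells 398 and 513 CPM. *Slc25a5* (ENSMUSG00000016319, chrX:36795651-36798807, plus strand) was highest among named classes in the photoreceptors, with 617 and 535 CPM in cone-like and 601 and 551 CPM in rod-like cells, whose intervals overlapped in both libraries. The unnamed cluster 5 held 651 and 577 CPM. Among named classes it was lowest in Müller-like cells (322 and 259 CPM), whose intervals overlapped those of bipolar-like cells (334 and 278 CPM). *Slc25a4* made up 73.0% of the UMIs of both carriers in bipolar-like and 73.2% in RPE-like cells of WT, but 50.3% in rod-like and 43.0% in macrophage- or microglia-like cells. The RPE-like class had 2 clusters that were unevenly filled: cluster 21, led by *Cox8b* and *Dct*, had 93 WT but 4 ND6 cells and held 1595 CPM of *Slc25a4* in WT. In cluster 6, with 230 WT and 954 ND6 cells, *Slc25a4* measured 911 and 1115 CPM.

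Set against rods, 2 of the 7 genes with at least 100 UMIs in the class and rods together, in each library, were at least 2-fold higher in cone-like cells of both libraries, *Ckb* and *Slc6a8*, where 4.3% of 9907 genes were. In bipolar-like cells these were again 2 of 7 (background 10.8%), in amacrine-like cells *Slc6a8* and *Ak1* (10.1%), in Müller-like cells *Slc6a8* (8.87%, from 13 and 9 UMIs in these cells), and in the unnamed cluster 15 *Ckb*, *Slc6a8* and *Ak1* (12.5%). In RPE-like and in macrophage- or microglia-like cells 0 of 7 were (7.98% and 6.68%). *Gatm* did not reach 100 UMIs in this sum and was left out. In the unnamed cluster 11, which is not in the cone-like class here, *Ckb* was 1.04 and 1.08 times the rod-like level. *Slc6a8* there was 3.12 and 3.45 times that level.

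Between the libraries, *Ckmt1* and *Slc25a5* had log2 ratios (ND6 over WT) below 0 in 7 of 7 named classes each, past the limit of 20% lower in 4 classes for *Ckmt1* and in 2 for *Slc25a5*. How many of all genes keep 1 direction over all classes, clusters or depth ranges was not counted. These units all come from the same pair of libraries, so they are not independent. *Slc6a8* and *Ak1* were at least 25% higher in ND6 in rod-like and cone-like cells. Free RNA, the barcodes with 10 to 100 UMIs, held 124 CPM of *Ckmt1* in WT and 71.9 CPM in ND6, from 28 UMIs each, and 588 and 452 CPM of *Slc25a5*. The WT levels of both genes lay below these in 5 of 7 named classes, all but rod-like and cone-like cells, and the part of free RNA in the ratios of these 5 classes was not tested. With each cell weighted once, the ratio of *Ckmt1* turned to 0.095 in bipolar-like and 0.86 in Müller-like cells, while that of *Slc25a5* stayed below 0 in all 7 classes. Over all cells, 3 of the 8 genes were at least 25% higher and 2 at least 20% lower in ND6, the limits past which genes are counted as higher or lower. Of 13074 genes with at least 100 UMIs, 25.4% were higher and 14.2% lower, 39.7% together. The median log2 ratio of the 8 genes was 0.23, and that of all genes 0.04. With so large a background, the count does not set these genes apart.

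*Ckb* measured 1062 (1053 to 1070) CPM in WT and 1267 (1258 to 1276) CPM in ND6 over all cells, a log2 ratio of 0.26 (0.24 to 0.27), under the 25% limit. It had the same ratio, 0.26, in rod-like cells, but 0.06 in cone-like and −0.02 (−0.07 to 0.03) in bipolar-like cells. In 6 of 7 rod-like clusters the ratio was above 0, from −0.10 to 0.25 over the 7, so each lay below the rod-like ratio. Cluster 7, where *Ckb* was lowest of the 7 at 612 and 702 CPM, held 659 of 9693 WT but 485 of 13601 ND6 rod-like cells. The part of this mix of clusters in the rod-like ratio was not tested. The *Ckb* ratio was also above 0 in 5 of 6 bipolar-like clusters, from −0.07 to 0.36. The highest was in cluster 14, where *Ckb* is lowest, with 49 of 233 WT but 292 of 636 ND6 bipolar-like cells. In the cone-like clusters it was 0.04 and 0.50. In amacrine-like cells the log2 ratio was −0.75 (−0.89 to −0.60), and in the unnamed cluster 15 −0.52. In that cluster ganglion cell markers summed to 2312 CPM in WT and 821 CPM in ND6, and amacrine markers to 1838 and 1652 CPM. At Leiden resolution 0.5 the amacrine-like class, led by *Snhg11*, *Cartpt* and *Nhlh2*, held 78 WT and 304 ND6 cells. The amacrine markers themselves measured 2445 CPM in the 17 WT and 1578 CPM in the 169 ND6 amacrine-like cells, which had a median of 8025 and 1550 UMIs. At Leiden resolution 2, an amacrine-like cluster led by *Meg3* and *Snhg11* held 1 WT and 138 ND6 cells, and another, led by *Tfap2b* and *Dner*, 16 and 33. The libraries thus filled this class from different subclusters, and the part of these shifts in its ratios, those of *Slc25a4*, *Slc25a5* and *Ak1* included, was not tested. In macrophage- or microglia-like cells *Ckb* was higher in ND6, with a log2 ratio of 0.42 (0.23 to 0.61). *Ckb* in free RNA was also higher, at 1225 CPM in WT and 1829 CPM in ND6, above the levels of macrophage- or microglia-like cells, and its part in the ratios of single classes was not tested.

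*Ckmt1* measured 184 (181 to 188) CPM in WT and 143 (140 to 146) CPM in ND6 over all cells, a log2 ratio of −0.37 (−0.41 to −0.32). Rod-like cells had −0.37 (−0.43 to −0.32) and cone-like cells −0.36 (−0.48 to −0.25). It was −0.50 in RPE-like cells, or −1.11 (−1.47 to −0.74) in their cluster 6 alone, and −1.16 (−2.03 to −0.39), from 90 and 16 UMIs, in the macrophage- or microglia-like class. The bipolar-like ratio of −0.17 (−0.44 to 0.09) and the amacrine-like and Müller-like ratios had intervals that held 0. In rod-like cells *Ckmt1* was lower in ND6 in 7 of 7 clusters, by log2 ratios from −0.53 to −0.28, and in 4 of 4 ranges of UMIs per cell.

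The *Ckmt1* share of both kinases in rod-like cells was 18.2% (17.8 to 18.6) in WT, from 6140 of 33729 UMIs, and 12.6% (12.2 to 12.9) in ND6, from 4795 of 38146 UMIs. The share does not depend on the total UMIs of the class. In cone-like cells it was 11.3% and 8.65%, and in bipolar-like cells 3.97% (3.41 to 4.58) and 3.58% (3.23 to 3.96), with intervals that overlapped. It was lower in ND6 in 6 of 7 named classes, with amacrine-like cells, at 3.23% and 4.69%, the exception. Within rod-like cells the share was higher in deeper cells. In WT it was 13.2% in cells with over 400 to 1000 UMIs and 20.9% in cells with over 5000 UMIs, and in ND6 10.0% and 14.995%. The intervals of WT and ND6 did not overlap in any of the 4 ranges, nor in 6 of 7 clusters, with cluster 10 (12.1% and 10.6%) the exception. Free RNA held 9.18% (28 of 305 UMIs) in WT and 3.78% (28 of 740) in ND6, and barcodes above the limit on mtDNA-encoded UMIs 11.04% and 5.47%. The share thus differed in the same direction outside the cells, and what free RNA adds to the rod-like shares was not tested.

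**Figure D2:**
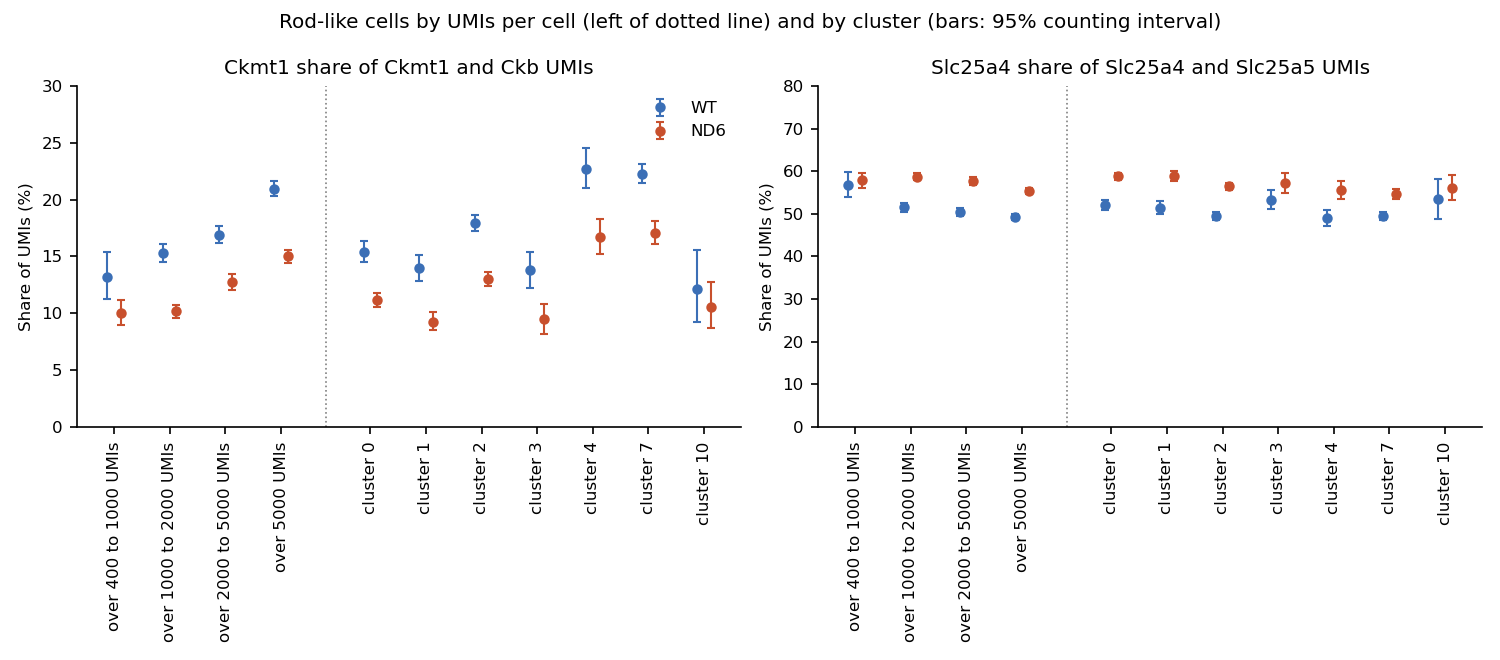
Share (%) of *Ckmt1* in *Ckmt1* and *Ckb* UMIs, left, and of *Slc25a4* in *Slc25a4* and *Slc25a5* UMIs, right, in rod-like cells by UMIs per cell and by cluster, with WT in blue, ND6 in orange, and bars for the 95% counting interval. The *Ckmt1* share is lower and the *Slc25a4* share higher in ND6 at each of the 4 ranges and 7 clusters, with overlapping intervals in cluster 10 on the left, and in clusters 3 and 10 and the lowest range on the right.

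*Slc25a4* measured 641 (634 to 647) CPM in WT and 734 (727 to 741) CPM in ND6 over all cells, and *Slc25a5* 561 (555 to 568) and 485 (479 to 490) CPM. The log2 ratios were 0.20 and −0.21, both under the limits. In rod-like cells they were 0.27 (0.25 to 0.30) and −0.13 (−0.15 to −0.10), and in cone-like cells 0.21 and −0.20. Over the 7 rod-like clusters the *Slc25a4* ratio was above 0 in 5 and below 0 in 2, from −0.09 to 0.34. That of *Slc25a5* was below 0 in 6 and above 0 in 1. The part of the mix of rod-like clusters in these ratios was not tested. The *Slc25a4* share of both carriers in rod-like cells was 50.3% (49.8 to 50.8) in WT, from 20485 of 40720 UMIs, and 57.1% (56.7 to 57.6) in ND6, from 25039 of 43821 UMIs. It was 54.8% and 61.8% in cone-like, 73.0% and 77.5% in bipolar-like, and 68.4% and 75.4% in Müller-like cells. In RPE-like cells, where the ratio of *Slc25a4* was −0.15 but 0.29 in cluster 6, it was 73.2% and 73.7%, but 64.4% and 73.2% in cluster 6 alone. Amacrine-like cells held 73.8% and 73.7%. In Müller-like cells, in RPE-like cells as a whole and in amacrine-like cells the intervals overlapped. The share was higher in ND6 in 7 of 7 rod-like and 6 of 6 bipolar-like clusters, and the intervals were apart in 5 rod-like clusters and 1 bipolar-like cluster. In rod-like cells with over 400 to 1000 UMIs it was 56.8% (53.9 to 59.7) and 57.8% (56.1 to 59.6), which overlap, and in the 3 deeper ranges the intervals were apart. In free RNA, where *Slc25a4* measured 778 and 696 CPM, above its levels in macrophage- or microglia-like cells, the share was 57.0% (51.2 to 62.6) and 60.6% (55.9 to 65.2). Barcodes above the limit on mtDNA-encoded UMIs held 56.5% and 73.9%.

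**Figure D3:**
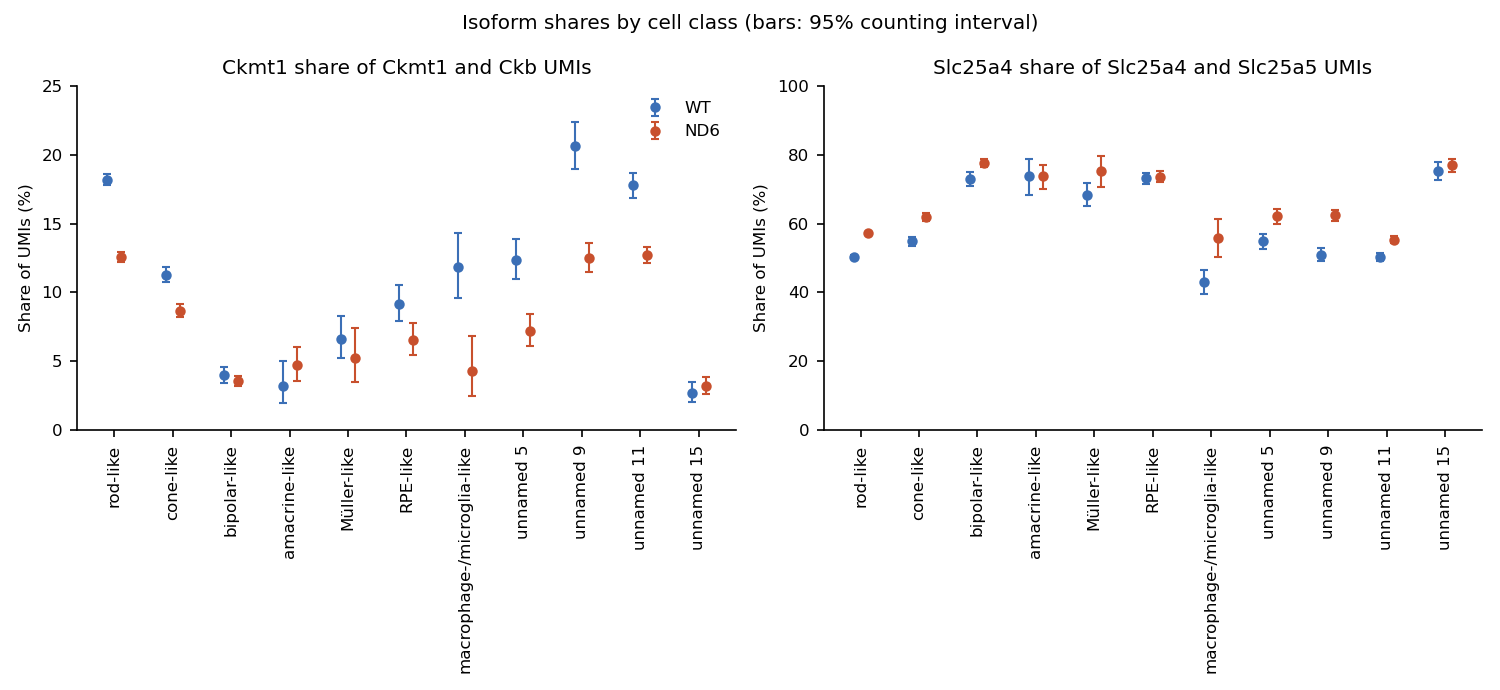
Share (%) of *Ckmt1* in *Ckmt1* and *Ckb* UMIs, left, and of *Slc25a4* in *Slc25a4* and *Slc25a5* UMIs, right, by class, with WT in blue, ND6 in orange, and bars for the 95% counting interval. In rod-like cells the *Ckmt1* share is 18.2% in WT and 12.6% in ND6, and the *Slc25a4* share 50.3% and 57.1%.

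*Slc6a8* measured 9.72 (8.91 to 10.6) CPM in WT and 16.8 (15.8 to 17.8) CPM in ND6 over all cells, 1.73 times as much, with a log2 ratio of 0.79 (0.64 to 0.94). In cone-like cells the log2 ratio was 0.63 (0.33 to 0.94), and in bipolar-like cells −0.05 (−0.41 to 0.32). With each class weighted as in WT, a weighting chosen after the data were seen, the ratio over all cells was 0.53. In rod-like cells it was 0.57 (0.25 to 0.90), but this differed with depth. It was 1.89 (0.90 to 3.03) in cells with over 1000 to 2000 UMIs, from 10 and 54 UMIs, and 0.07 (−0.36 to 0.49) in cells with over 5000 UMIs, from 103 and 91 UMIs. Levels of other classes' markers in rod-like cells moved with it: the cone markers summed to 229 CPM in WT and 382 CPM in ND6, and the bipolar markers to 164 and 254 CPM. Their part in the rod-like ratio was not tested.

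*Ak1* measured 13.7 (12.7 to 14.7) CPM in WT and 19.6 (18.5 to 20.7) CPM in ND6 over all cells, a log2 ratio of 0.52 (0.39 to 0.65). The ratio was 0.68 (0.49 to 0.88) in rod-like cells, where it was higher in 7 of 7 clusters and in 4 of 4 depth ranges, with 0.70 (0.42 to 0.98) in the deepest. In cone-like and bipolar-like cells it was 0.51 and 0.52, with intervals that held 0. From few UMIs, it was 1.74 (0.57 to 2.95) in macrophage- or microglia-like and −1.35 (−2.14 to −0.53) in amacrine-like cells. In RPE-like cells the ratio was −0.33 (−0.89 to 0.22), −0.03 in cluster 6, and 0.075 with each cell weighted once.

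*Gamt* measured 6.97 (6.29 to 7.71) CPM in WT and 8.75 (8.04 to 9.52) CPM in ND6 over all cells, a log2 ratio of 0.33 (0.14 to 0.52), and 6.60 and 8.98 CPM in rod-like cells, a ratio of 0.45 (0.19 to 0.70). *Gatm* measured 1.76 (1.43 to 2.15) and 1.08 (0.839 to 1.37) CPM over all cells, a log2 ratio of −0.70 (−1.17 to −0.24). The class that held most of it was a smaller part of the ND6 cells: macrophage- or microglia-like cells made up 2.16% of WT and 0.826% of ND6 cells. Within them the ratio of *Gatm* was 0.20 (−0.39 to 0.77), and with the class mix of WT the ratio over all cells was 0.26.

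**Figure D4:**
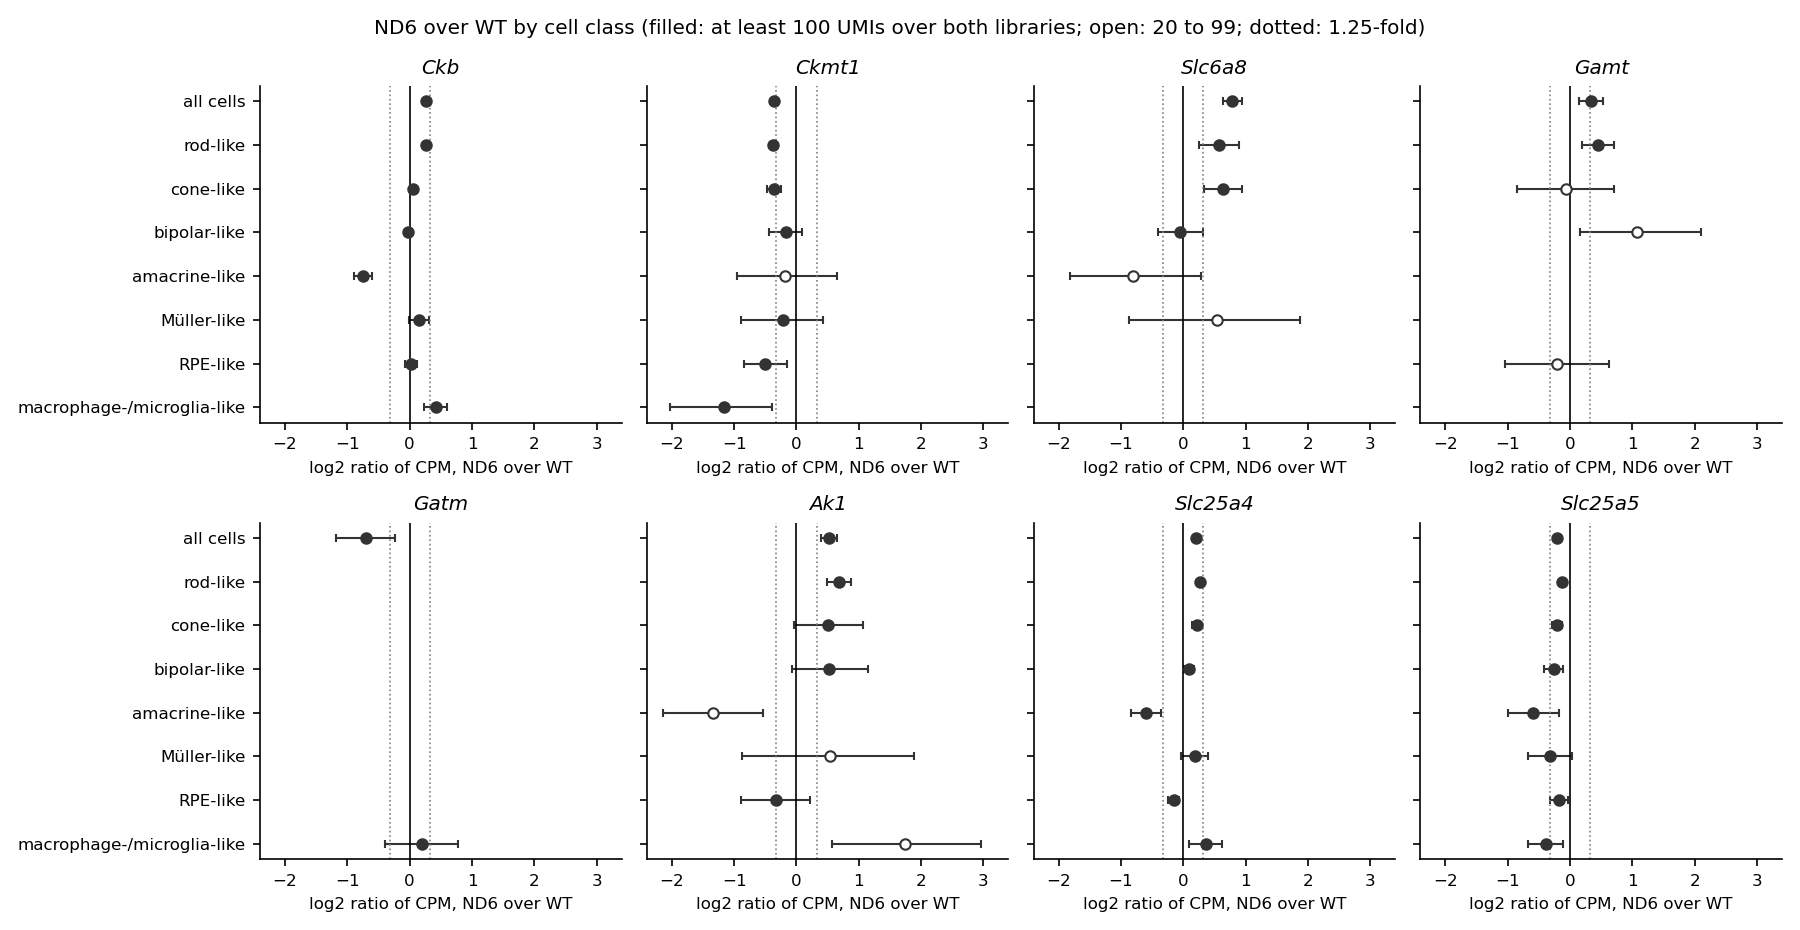
Log2 ratio of CPM, ND6 over WT, for each gene over all cells and in 7 classes, 1 library each, with bars for the 95% counting interval, filled points for at least 100 UMIs over both libraries, open points for 20 to 99, and dotted lines at the limits of 25% higher and 20% lower. *Ckmt1* and *Slc25a5* lie below 0 in each of the 7 classes, and *Ckb* runs from −0.75 in amacrine-like to 0.42 in macrophage- or microglia-like cells.

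Among the classes, rod-like cells had 7 of the 8 genes with enough UMIs, of which *Slc6a8*, *Gamt* and *Ak1* were higher and *Ckmt1* lower in ND6, where 18.9% of 10818 genes were higher and 18.3% lower. In cone-like cells 2 of 6 were higher (*Slc6a8* and *Ak1*, background 13.8%) and 1 lower (*Ckmt1*, 14.6%). In bipolar-like cells 1 of 6 was higher (*Ak1*, background 19.4%) and 0 were lower (11.3%). In amacrine-like cells 3 of 3, *Ckb*, *Slc25a4* and *Slc25a5*, were lower, where 34.9% of 1506 genes were lower and 23.7% higher, between cells mostly of different subclusters. In RPE-like cells 2 of 5, *Ckmt1* and *Ak1*, were lower (background 16.9%) and 0 higher (16.6%), and in Müller-like cells 0 of 4 were lower (28.8%) or higher (16.2%). In the macrophage- or microglia-like class *Ckb* and *Slc25a4* were higher (background 21.7%) and *Ckmt1* and *Slc25a5* lower (21.8%), of 5.

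A list of 45 further genes of the pathway was read in the same way. Over all cells 35 had enough UMIs, 6 were higher and 2 lower, where 25.4% of 13074 genes were higher and 14.2% lower. The median log2 ratio of the 35 was 0.03, against 0.04 for all genes. Among the higher genes were *Ak4*, a mitochondrial adenylate kinase (6.49 CPM in WT and 12.2 CPM in ND6, log2 ratio 0.91), and *Slc25a23*, a carrier of ATP-Mg and phosphate (41.4 and 61.7 CPM, 0.57). *Nme3* (0.40), *Ppa2*, a mitochondrial pyrophosphatase (0.35), and *Gnmt* (0.32) were nearer to the limit. The lower genes were *Nme6* (−0.50) and *Ahcy*, which cleaves the S-adenosylhomocysteine left by methylation (−0.45). *Slc25a23* was higher in 3 of 4 named classes with enough UMIs, rod-like (0.54, background 18.9%), bipolar-like (0.52, 19.4%) and cone-like (0.36, 13.8%). *Ak6* was lower in 3 of 4, and *Nme1* lower in 3 and higher in 1 of 7. The share of all genes past the limits in as many classes was not counted. The muscle creatine kinases were at 5 and 14 UMIs (*Ckm*) and 2 and 1 UMIs (*Ckmt2*) over all cells, so *Ckb* and *Ckmt1* made up nearly all creatine kinase UMIs. Over all cells the 6 listed subunits of AMP-activated kinase and the 3 outer membrane porins lay within the limits. In amacrine-like cells, of which WT had 17, 3 of 3 porins were lower, where 34.9% of 1506 genes were. Of the kinase subunits with enough UMIs, 1 of 4 was lower in bipolar-like (background 11.3%) and 1 of 1 in Müller-like cells (28.8%).

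The genes most like each member across 6 classes of both libraries, by Pearson's r of log2(CPM + 1) over 12 points, were *Scg3* for *Ckb* (0.99), *Pde6d* for *Ckmt1* (0.94), *Hspa12a* for *Slc6a8* (0.98), *Hdac3* for *Gamt* (0.95), *Gpr19* for *Ak1* (0.93), *Ccdc167* for *Slc25a4* (0.95) and *Sf3b5* for *Slc25a5* (0.89). *Gatm*, with under 500 UMIs, was not compared. The points share their libraries and their rod transcripts, and these r describe these 12 sums only.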

How the data were processed

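The deposited values are raw UMI counts per gene and barcode, which the authors made from droplet-based 3′ reads with Cell Ranger 3.0.2 on mm10, not normalized and not filtered for cells. The annotation release is not given in the sources used here. Gene positions are from GENCODE M21 (GRCm38), in which 8 of 8 identifiers matched, and promoters from RefSeq, where 7 of 8 genes matched and *Slc6a8* did not. Cell Ranger counts only reads assigned to 1 gene, so reads common to related genes are lost.

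The 8 genes and all lists were chosen with earlier results of these data known. Counts were log-normalized per cell, and 3000 variable genes, 30 principal components, 20 neighbours and Leiden resolution 1 (scanpy 1.11.5, leidenalg 0.10.2) gave the clusters. These genes, the pathway lists and mtDNA-encoded genes, among 69, were left out of the clustering. Clusters of at least 20 cells were named by 3 or more markers raised at least 2-fold and by markers among their leading 10 genes. A cluster still unnamed, with under 3 raised markers of every type, was set against the named clusters other than rod-like and cone-like. It was named rod-like if at least 3 rod markers were raised there, with no more cone than rod markers among its leading genes. Rod-like clusters 2, 4, 7 and 10 had no rod marker among their leading 10 genes. These rules were settled after the clusters were seen. Cells are not replicates: counts were summed per library and class. A gene with at least 100 UMIs over both libraries was counted as higher or lower in ND6 from 25% higher or 20% lower on. Scrublet called 0 doublets in both libraries, so it did not work and doublets were kept. The computation of ratios and intervals was checked on simulated Poisson counts: of 200 genes changed 1.5-fold over all 13074 genes, 94.5% had their true ratio inside the interval. The counts were drawn from the model behind the intervals, so coverage near 95% was built in. They hold no variation between cells, mice or libraries and no free RNA, so they do not test the ratios of these data.

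Pathway genes are named where past these limits over all cells or in at least 3 classes. The values of 1 pathway gene are not reported here. Single clusters were chosen for description with their values known. PCR duplicates are removed by UMIs, and intervals cover counting error only.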

Additional observations from a re-analysis of the deposited data

Results flagged for a closer look

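Of the differences between the libraries, 3 pointed in opposite directions in 2 classes, each past the limits of 25% higher or 20% lower, and the difference between the classes was not tested. The log2 ratio of *Ckb*, ND6 over WT, was 0.42 in macrophage- or microglia-like and −0.75 in amacrine-like cells. That of *Slc25a4* was 0.36 in macrophage- or microglia-like and −0.59 in amacrine-like cells, and that of *Ak1* was 0.68 in rod-like and −0.33 in RPE-like cells. The WT amacrine-like class held 17 cells, and at Leiden resolution 2 the amacrine-like cells of the libraries fell mostly into different clusters, of 1 WT and 138 ND6 and of 16 WT and 33 ND6 cells. In macrophage- or microglia-like cells both *Ckb* and *Slc25a4* lay below their levels in free RNA in both libraries. The *Ak1* ratio in RPE-like cells was −0.03 in the cluster that holds most of them.

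Barcodes outside the cells, which enter no comparison, also differed between the libraries, in both directions. The log2 ratio of *Ckb* was 0.58 in free RNA and 0.68 in barcodes with 100 to 200 UMIs. In the latter *Slc6a8* had 3.45, from 4 WT and 168 ND6 UMIs, *Ak1* 1.10 and *Slc25a4* 0.49. In barcodes above the limit on mtDNA-encoded UMIs *Slc6a8* had 1.99, *Ak1* 0.90 and *Gamt* 0.42, the last with an interval of −0.09 to 0.91, while *Ckmt1* had −0.89 and *Slc25a5* −0.93. In free RNA *Slc25a5* had −0.38 (−0.71 to −0.04). The bipolar markers in barcodes with 100 to 200 UMIs summed to 435 CPM in WT and 1381 CPM in ND6, and the Müller markers to 1871 and 3168 CPM. Their part in these ratios was not tested.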

How the results depend on the processing

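No paired analysis was possible because each genotype has 1 library, and for the same reason no library could be left out. Of 456 recomputed ratios of the 8 genes, 439 kept their sign and 66 moved beyond the counting interval. Where the main value was past the limits, 238 of 240 kept their sign and 2 reversed. The reversed values were *Ak1* in RPE-like cells with each cell weighted once (0.075) and *Gatm* over all cells with the class mix of WT (0.26), an alternative chosen after the data were seen. The numbers of genes past the limits stayed at 4 or 5 over all cells and at 3 or 4 in rod-like cells. With no limit on mtDNA-encoded UMIs, the *Slc25a4* share in rod-like cells was 51.0% in WT and 57.7% in ND6, and the *Ckmt1* share 17.2% in WT. With each cell weighted once, the *Slc25a4* shares were 51.7% and 58.1%, and the *Ckmt1* shares 15.9% and 10.9%. Without the rod-like cluster of the highest UMI count, chosen after the data were seen, the *Ckmt1* shares were 16.8% and 11.8%. Of the 8 genes, over the 6 named classes with at least 30 cells in each library, which leaves out amacrine-like cells, 4 had the same highest class in both libraries, 7 after free RNA was subtracted, and 3 by the share of cells with a UMI at 400 UMIs per cell. The causes were not tested. Depth limits *Gatm*, *Gamt*, *Slc6a8* and *Ak1* in most of the smaller classes, where under 100 UMIs over both libraries allow no count of a difference between them.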
